A study of Mus musculus with 12 samples.

Results

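The genes described here encode 8 membrane transporters that move drugs, conjugated metabolites, organic cations and prostaglandins across the gut wall: Abcb1a, Abcb1b, Abcc1, Abcc2, Abcc3, Abcg2, Slc47a1 and Slco2a1. They were chosen by name, and every probe set of the expression table that the probe annotation assigns to one of these symbols alone was taken, which gave 12 of 22690 probe sets for 8 of 12394 genes with a symbol. Small intestines of male mice aged 14 weeks had been profiled on Affymetrix mouse 430A arrays, with 3 arrays in each of 4 groups: PPARα-null mice of strain 129S4/SvJae fasted for 24 h, wild-type mice of strain 129S1/SvImJ fasted for 24 h, PPARα-null mice in the fed state and wild-type mice in the fed state. On the diet the sources differ, since the series' design text names the purified diet AIN93M and the methods name standard chow. Fasting had begun at the onset of the light period, and the whole length of the small intestine, flushed and freed of fat and pancreas, had been used for total RNA. PPARα-null mice lack the nuclear receptor PPARα in every cell of the body. Because the genotypes came from different substrains, genotype and substrain cannot be told apart. Replicates are separate samples by their labels. The labels do not say how many mice 1 sample represents.

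Transporters of the ABC family use the energy of ATP to pump substances out of the cell. In the enterocyte, P-glycoprotein (Abcb1a and Abcb1b in the mouse), Abcg2 and Abcc2 sit in the membrane that faces the lumen and return drugs and conjugates to the gut, whereas Abcc1 and Abcc3 export towards the blood. Solute carriers such as Slc47a1 and Slco2a1 do not split ATP and are driven by ion or substrate gradients. Many of these genes are known targets of ligand-activated nuclear receptors and of the stress-sensing factor Nrf2.

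Sequences are shown for 4 genes with different results: the neighbouring P-glycoprotein genes of chromosome 5, of which Abcb1a changed and Abcb1b gave no signal over the level threshold, Abcc2, which was near the level threshold, and Slco2a1, whose probe sets disagreed. Each is the 250 bases before the annotated start site, from RefSeq on build GRCm38.p6, written 5′ to 3′ on the strand of the gene, which is the plus strand for all 4. They lie at chr5:8566841-8567090 (Abcb1a), chr5:8797897-8798146 (Abcb1b), chr19:43782058-43782307 (Abcc2) and chr9:103008237-103008486 (Slco2a1). Capitals mark matches, on either strand, to AGGTCA (the hexamer that many nuclear receptors bind), TGACNNNGC (the core of the element that Nrf2 binds), CCAAT (the CCAAT box), GGGCGG (the GC box) or TATAAA (the TATA box).
Abcb1a: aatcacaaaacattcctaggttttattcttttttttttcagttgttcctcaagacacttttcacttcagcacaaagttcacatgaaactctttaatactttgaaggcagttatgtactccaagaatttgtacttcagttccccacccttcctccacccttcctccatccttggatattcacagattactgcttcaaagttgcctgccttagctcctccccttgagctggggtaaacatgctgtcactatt
Abcb1b: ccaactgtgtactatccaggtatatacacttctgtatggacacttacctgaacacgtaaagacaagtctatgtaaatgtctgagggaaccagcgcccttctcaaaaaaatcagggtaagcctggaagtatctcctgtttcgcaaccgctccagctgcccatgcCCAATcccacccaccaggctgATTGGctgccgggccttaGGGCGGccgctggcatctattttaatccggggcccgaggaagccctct
Abcc2: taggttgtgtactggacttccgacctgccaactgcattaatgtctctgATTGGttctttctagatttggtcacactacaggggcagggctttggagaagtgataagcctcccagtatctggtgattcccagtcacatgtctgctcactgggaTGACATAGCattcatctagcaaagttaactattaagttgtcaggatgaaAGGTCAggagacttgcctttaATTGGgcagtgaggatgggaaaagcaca
Slco2a1: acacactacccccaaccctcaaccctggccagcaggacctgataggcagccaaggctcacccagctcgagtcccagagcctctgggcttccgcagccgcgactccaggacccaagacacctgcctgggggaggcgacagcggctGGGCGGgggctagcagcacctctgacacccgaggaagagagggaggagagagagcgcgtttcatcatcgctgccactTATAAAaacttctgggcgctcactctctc

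The Abcb1a window held none of these motifs. The Abcb1b window held CCAAT on both strands and GGGCGG. In Abcc2, AGGTCA began 49 bases and TGACATAGC, a match to TGACNNNGC, 98 bases before the start site, and CCAAT was present at 2 places on the reverse strand. Slco2a1 held GGGCGG and, 29 bases before the start site, TATAAA. Such matches are common: among 32851 windows of this length, 14% held AGGTCA, 10.2% TGACNNNGC, 33.8% CCAAT, 32.7% GGGCGG and 12.4% TATAAA. The direct repeat AGGTCANAGGTCA, which contains AGGTCA and is the form that PPARα binds with its partner RXR, was in 0.0335% of windows and in none of the 7 windows found for 5 of the genes. Abcg2 has 3 annotated start sites, of which 1 window held AGGTCA, 1 held GGGCGG and 1 held both. A motif match is a description of the letters only. Windows of Abcc1, Abcc3 and Slc47a1 were not used here.

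Values are GCRMA intensities, which are background-corrected and normalized signals per probe set on a linear scale, and differences are given on the log2 scale. Fed arrays shared nearly the same distribution of values and fasted arrays another: the mean distance between the sorted log2 values of 2 arrays was 0.00806 to 0.041 within fed arrays, 0.00947 to 0.069 within fasted arrays and 0.176 to 0.206 between them. The median change of all expressed probe sets upon fasting was −0.32, and changes upon fasting are therefore given relative to this shift. For a single probe set the shift and fasting cannot be told apart, so changes as deposited, which are 0.32 lower, are given where they alter a call of a named gene. Comparisons of genotypes within a feeding state do not depend on it. Ppara itself averaged 11.9 in PPARα-null fasted and 45.9 in wild-type fasted mice, and 7.23 in PPARα-null fed and 29.9 in wild-type fed mice, as the sample titles would have it. The description field of the wild-type fasted samples names a knockout, while their titles and strain name wild-type mice. No source used here places the Ppara probe set relative to the deleted part of the gene.

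The PPARα-null fasted arrays stood apart from the rest in Nfe2l2, which encodes Nrf2. Its intensities were 50.3, 60.0 and 30.2 in these mice, against 1005 to 1337 in wild-type fasted, 1518 to 1618 in PPARα-null fed and 1425 to 1611 in wild-type fed mice. The labels give PPARα-null fed and fasted mice the same strain. Whether they also come from the same mouse line and share the same Nfe2l2 gene was not tested. In each fasting response given below, of PPARα-null or of wild-type mice, fasting and any other difference between fed and fasted arrays cannot be told apart. Removal of a shift common to all probe sets does not change this. In differences of responses and comparisons of fasted mice, loss of PPARα and any other difference between the groups cannot be told apart either. Summed intensities of 6 exocrine pancreas genes were 14173, 112 and 14523 on the PPARα-null fasted arrays and 5221 to 10721 on the wild-type fasted arrays, against 80.1 to 248 on the PPARα-null fed and 79.9 to 678 on the wild-type fed arrays. Of 5 listed enterocyte markers, the 3 on the array (Vil1, Fabp2 and Anpep) were far over the level threshold in every group, with sums of 17576 to 18649 in PPARα-null fasted, 17634 to 19260 in wild-type fasted, 19468 to 20606 in PPARα-null fed and 21356 to 21517 in wild-type fed mice. Sums of 5 leukocyte markers, of which Cd3e and Itgam were under 20 in all groups, were 234 to 299 in PPARα-null fasted, 438 to 486 in wild-type fasted, 670.2 to 767 in PPARα-null fed and 757 to 859.9 in wild-type fed mice. Those of 3 fibroblast markers were 588 to 654 in PPARα-null fasted, 652 to 912 in wild-type fasted, 1358 to 1719.8 in PPARα-null fed and 1743 to 1755 in wild-type fed mice. In PPARα-null mice Col3a1 averaged 143 fasted and 1019.7 fed and Col1a1 17.7 and 75.4, whereas Dcn averaged 453 fasted and 417 fed. In wild-type mice all 3 were lower upon fasting. Smooth muscle markers (5) summed to 2676 to 2973 in PPARα-null fasted, 1809 to 2896 in wild-type fasted, 3646 to 4074 in PPARα-null fed and 3873 to 4624 in wild-type fed mice. In PPARα-null mice Myh11 (608 fasted, 571 fed) and the enterocyte marker Fabp2 (9869 fasted, 9469 fed) were not lower upon fasting. The other markers of both types were. Sums of 6 endothelial markers were 83.4 to 101 over all 12 arrays, but at most 2 of these markers were over 20 in any group. All sums are of intensities as deposited. The part that these differences have in the results was not tested.

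Of the 12 probe sets, 8 probe sets of 6 genes had a mean intensity over 20 in at least 1 group and were tested. A probe set was called changed at an unadjusted limma p under 0.01 and a fold over 1.3, a threshold met by 42.2% of all tested probe sets upon fasting in PPARα-null mice and by 17.5% in wild-type mice. In PPARα-null mice 4 of the 8 transporter probe sets rose upon fasting (background 18.6%) and 2 fell (background 23.6%). In wild-type mice 2 rose (background 10%) and 1 fell (background 7.43%). The median change was 0.73 over the 8 probe sets in PPARα-null mice, against −0.016 over all tested, and 0.014 in wild-type mice, against 0.031 over all tested. Abcb1a and Slco2a1 are each counted here with 2 probe sets. The 4 that rose in PPARα-null mice belong to Abcb1a, Slc47a1 and Slco2a1. With only the probe set of highest mean per gene, changes there were 2.36 (Slc47a1), 1.18 (Abcb1a), 0.39 (Slco2a1), −0.41 (Abcg2), −0.47 (Abcc2) and −0.98 (Abcc3). With the values as deposited, the counts were 4 higher and 3 lower in PPARα-null mice (background 8.16% and 43.4%) and 1 higher and 3 lower in wild-type mice (background 2.49% and 31.7%). Arrays of the groups did not overlap, after removal of the shift, for 4 higher and 3 lower probe sets in PPARα-null mice (background 30.3% and 33.4%) and for 2 higher and 1 lower in wild-type mice (background 22.4% and 15.8%). In whole tissue, fewer cells of a type and less RNA per cell cannot be told apart.

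**Figure D1:**
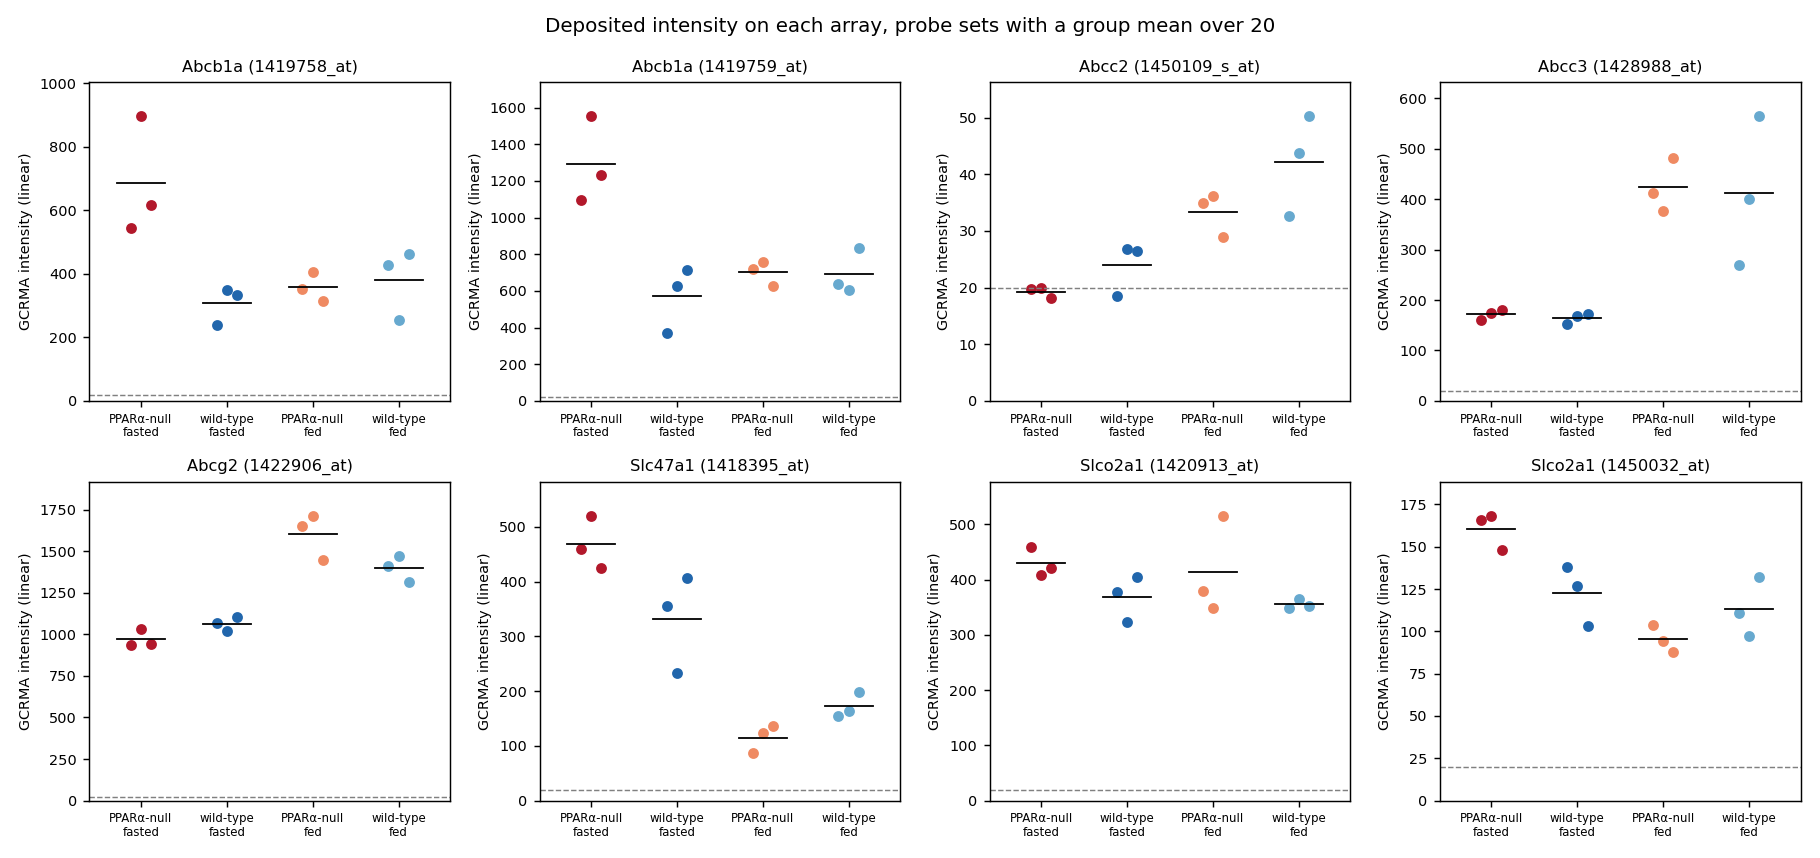
Deposited GCRMA intensity (linear axis from 0) of the 8 probe sets with a group mean over 20, with 1 point per array, a bar at the mean of 3 arrays and a dashed line at 20. Abcb1a on PPARα-null fasted arrays lies above all other arrays on both probe sets, Slc47a1 is higher on fasted than on fed arrays, and Abcc3 is lower on fasted arrays of both genotypes.

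Abcb1a, the P-glycoprotein gene that is the main form in mouse intestine, was higher in PPARα-null fasted mice than in any other group. Its probe set 1419759_at had intensities of 1095, 1552 and 1230.1 in PPARα-null fasted mice and 371, 628 and 715 in wild-type fasted mice, against 722, 759 and 629 in PPARα-null fed mice and 639, 603 and 835 in wild-type fed mice. The lowest PPARα-null fasted array exceeded the highest array of each other group, and the other 3 groups overlapped. Probe set 1419758_at gave 546, 896 and 618 in PPARα-null fasted mice and 238, 350.4 and 333 in wild-type fasted mice, against 351, 406 and 316 in PPARα-null fed mice and 427, 254 and 464 in wild-type fed mice. Here too the PPARα-null fasted arrays lay above all others, and the pair of probe sets had a Pearson r of 0.95 over the 12 arrays, which share groups and normalization. Replicate 2, the PPARα-null fasted array with the low pancreas sum, was the highest on both probe sets.

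Upon fasting, Abcb1a rose by 1.18 on the log2 scale (SE 0.215, 95% interval 0.72 to 1.65, limma adjusted p = 0.000517) on 1419759_at and by 1.23 (SE 0.235, 95% interval 0.72 to 1.74, adjusted p = 0.000718) on 1419758_at in PPARα-null mice. In wild-type mice the differences were −0.00049 (95% interval −0.47 to 0.47, limma adjusted p = 0.999) and 0.03 (95% interval −0.48 to 0.54, adjusted p = 0.944). The difference between these responses was 1.18 (SE 0.305, limma adjusted p = 0.0144) and 1.20 (SE 0.332, adjusted p = 0.02). Among fasted mice, PPARα-null arrays exceeded wild-type arrays 2.32-fold on 1419759_at (log2 1.22, SE 0.215, limma adjusted p = 0.000707) and 2.22-fold on 1419758_at (log2 1.15, SE 0.235, adjusted p = 0.00191). In fed mice the genotypes differed by 0.03 (95% interval −0.43 to 0.50) and −0.06 (95% interval −0.56 to 0.45). The calls of Abcb1a held under all settings tried, including the values as deposited, where the rises in PPARα-null mice were 0.87 and 0.92, and with any single array left out.

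Abcb1b, the second P-glycoprotein gene, had intensities of 6.03 to 8.03 on the 12 arrays, under the level threshold of 20 in every group. It was therefore not tested, and a change of this gene was not measurable at this signal.

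Slc47a1 encodes MATE1, an exchanger that expels organic cations in return for protons and is best known from kidney and liver. Its intensities were 459.8, 519.5 and 425 in PPARα-null fasted mice and 355, 233 and 406 in wild-type fasted mice, against 86.6, 123 and 136 in PPARα-null fed mice and 154, 163 and 199 in wild-type fed mice. Every fasted array was above every fed array, and in each feeding state the arrays of the genotypes did not overlap, PPARα-null arrays being the higher in fasted and the lower in fed mice. Slc47a1 rose 5.13-fold upon fasting in PPARα-null mice (log2 2.36, SE 0.203, limma adjusted p = 1.31e-06) and 2.35-fold in wild-type mice (log2 1.23, SE 0.203, adjusted p = 0.00143). The response was larger in PPARα-null mice by 1.13 (SE 0.287, 95% interval 0.51 to 1.75, limma adjusted p = 0.0136).

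Neither comparison of genotypes within a feeding state passed the threshold for Slc47a1. PPARα-null minus wild-type was 0.53 in fasted mice (95% interval 0.09 to 0.97, limma adjusted p = 0.0522) and −0.59 in fed mice (95% interval −1.03 to −0.16, adjusted p = 0.271). The fasted comparison passed without wild-type fasted replicate 3 (0.70), and the fed one without PPARα-null fed replicate 3 (−0.73) or wild-type fasted replicate 2 or 3 (−0.59). The rises upon fasting and the difference of responses held under all settings and with any single array left out.

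Slco2a1 encodes the prostaglandin transporter, which takes up prostaglandins for their breakdown inside the cell, and its 3 probe sets differed. On 1450032_at the intensities were 166, 168 and 148 in PPARα-null fasted mice and 138, 127 and 103 in wild-type fasted mice, against 104, 94.4 and 87.9 in PPARα-null fed mice and 111, 97.1 and 132 in wild-type fed mice. The PPARα-null fasted arrays were the highest of all 12, while wild-type fasted and wild-type fed arrays overlapped. This probe set rose 2.09-fold upon fasting in PPARα-null mice (log2 1.07, SE 0.132, limma adjusted p = 2.45e-05) and 1.35-fold in wild-type mice (log2 0.43, SE 0.132, adjusted p = 0.0331). The responses differed by 0.63 (SE 0.186, 95% interval 0.23 to 1.04, limma adjusted p = 0.0265).

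The rise of 1450032_at in wild-type mice was not called with the values as deposited (0.12) or in a fit of only the groups compared (0.43), nor without wild-type fasted replicate 1 (0.34) or 2 (0.41), nor without replicate 1 (0.43) or 2 (0.33) of the fed wild-type mice. The difference of responses missed the threshold without PPARα-null fasted replicate 1 (0.61) or 2 (0.60), without PPARα-null fed replicate 2 (0.63) or 3 (0.58), and without replicate 3 of the fasted (0.51) or of the fed wild-type mice (0.52). Between genotypes the probe set was higher by 0.40 in PPARα-null fasted mice, with no overlap, at a limma p of 0.0103 (adjusted p = 0.0292), just outside the threshold. It passed at the other threshold tried, a limma adjusted p under 0.05 with a fold over 1.3. It also passed without wild-type fasted replicate 1 (0.49) or wild-type fed replicate 2 or 3 (0.40 in each case).

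Probe set 1420913_at of Slco2a1 had intensities of 459, 409 and 420.4 in PPARα-null fasted mice and 378, 323 and 405 in wild-type fasted mice, against 379, 349 and 515 in PPARα-null fed mice and 348, 366 and 352 in wild-type fed mice. As deposited, the groups overlapped within each genotype and between genotypes in fed mice. Genotypes did not overlap in fasted mice, where the difference was 0.22 (limma adjusted p = 0.195). After removal of the shift, wild-type fasted arrays of this probe set lay above wild-type fed arrays. Its changes upon fasting did not pass, with 0.39 in PPARα-null mice (95% interval 0.10 to 0.67, limma adjusted p = 0.0247) and 0.36 in wild-type mice (95% interval 0.08 to 0.65, adjusted p = 0.0637), and the responses differed by 0.02 (95% interval −0.38 to 0.43). The change passed in PPARα-null mice with each array centred on its median (0.45), with trended and robust variances (0.39), and without PPARα-null fed replicate 3 (0.55) or wild-type fasted replicate 2 (0.39), and in wild-type mice without wild-type fasted replicate 2 (0.46). In PPARα-null mice the change of 1420913_at also passed at a limma adjusted p under 0.05 with a fold over 1.3. The paper lists 1420913_at as increased by 24 h of fasting in wild-type mice and does not list 1450032_at. Relative to the common shift, the wild-type calls here were the reverse. As deposited neither probe set passed in wild-type mice, with 0.047 on 1420913_at and 0.12 on 1450032_at. The third probe set, 1420914_at, stayed at 5.02 to 7.41 on all arrays and was not tested. Pearson r over the 12 arrays was 0.60 between the first 2 of these probe sets, and 0.33 and 0.52 for the pairs with 1420914_at.

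**Figure D2:**
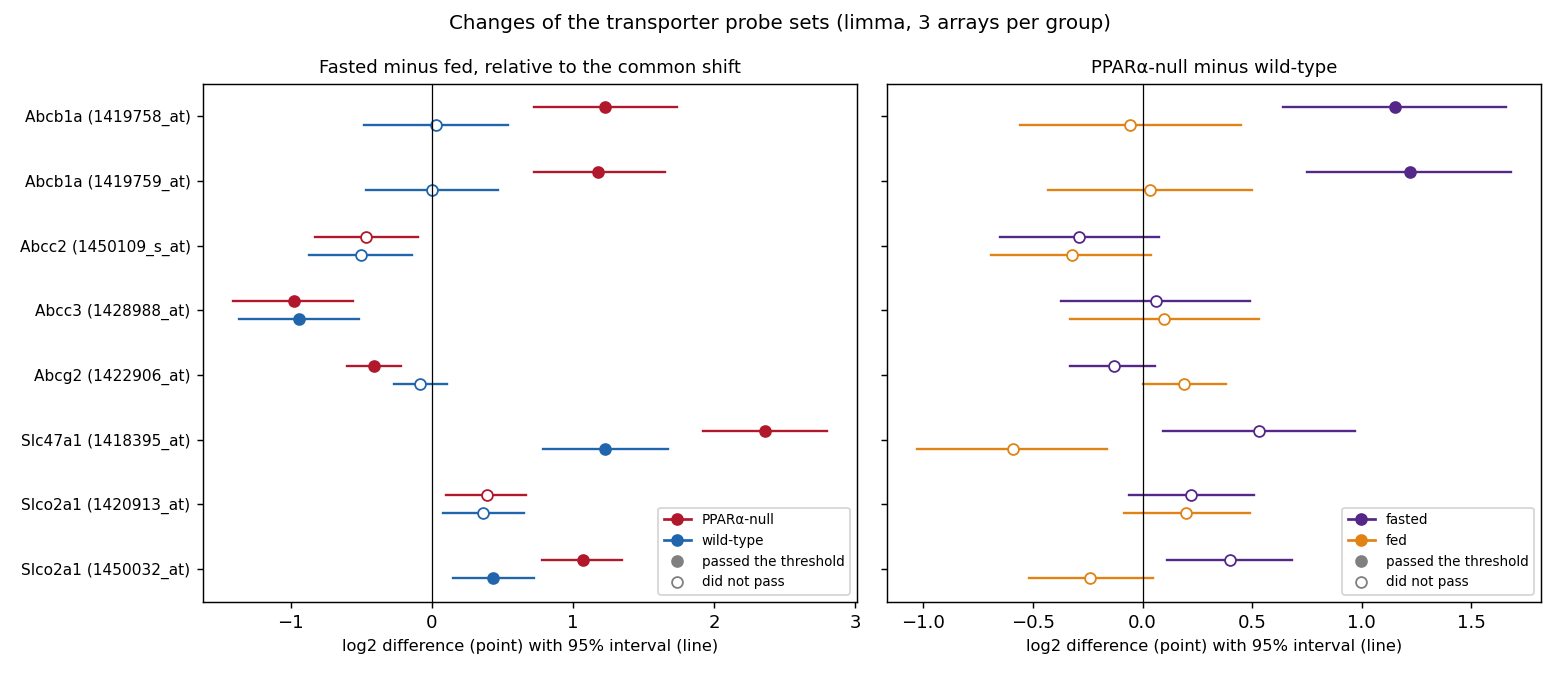
Log2 differences (points) with 95% intervals (lines) from limma for the 8 tested probe sets, on the left fasted minus fed relative to the common shift in PPARα-null and wild-type mice, and on the right PPARα-null minus wild-type in fasted and fed mice. Filled points passed the threshold: in fed mice none did, and in fasted mice the Abcb1a probe sets did.

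Abcc3, an exporter of glucuronides and bile salts towards the blood, fell upon fasting in both genotypes. Its intensities were 160.1, 174 and 180.5 in PPARα-null fasted mice and 153, 168 and 173 in wild-type fasted mice, against 413, 377 and 481 in PPARα-null fed mice and 270.3, 400.3 and 564 in wild-type fed mice. Every fasted array lay below every fed array, and the fed wild-type arrays were the most spread. The change was −0.98 in PPARα-null mice (SE 0.198, limma adjusted p = 0.00105) and −0.94 in wild-type mice (SE 0.198, adjusted p = 0.00526). The responses differed by −0.04, with a 95% interval of −0.64 to 0.57. Genotypes differed by 0.06 in fasted mice (95% interval −0.37 to 0.49) and 0.10 in fed mice (95% interval −0.33 to 0.53), which did not pass. The falls were called under all settings and with any single array left out.

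Abcg2, the breast cancer resistance protein that returns drugs and conjugates to the lumen, had intensities of 938, 1029.9 and 939 in PPARα-null fasted mice and 1066, 1019 and 1106 in wild-type fasted mice, against 1649.6, 1710 and 1447 in PPARα-null fed mice and 1412, 1471 and 1317 in wild-type fed mice. Fasted arrays were below fed arrays in each genotype as deposited. Relative to the common shift Abcg2 fell by 0.41 in PPARα-null mice (SE 0.0879, limma adjusted p = 0.00171), and the wild-type difference was −0.08 (95% interval −0.27 to 0.11, adjusted p = 0.54). As deposited the fall in wild-type mice, −0.40, also passed. The difference of responses was −0.33 (95% interval −0.60 to −0.06, limma adjusted p = 0.0752) and did not pass.

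The fall of Abcg2 in PPARα-null mice is close to the fold threshold. It was not called without PPARα-null fed replicate 2 (−0.36) or with each array centred on its median (−0.35), and the difference of responses passed without PPARα-null fed replicate 3 (−0.40). PPARα-null minus wild-type was −0.13 in fasted mice (95% interval −0.33 to 0.06) and 0.19 in fed mice (95% interval 0.00 to 0.38, limma adjusted p = 0.435).

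Abcc2, which exports glutathione and glucuronide conjugates to the lumen, was near the level threshold. Its intensities were 19.7, 20 and 18.2 in PPARα-null fasted mice and 18.5, 26.8 and 26.5 in wild-type fasted mice, against 34.9, 36.2 and 29.0 in PPARα-null fed mice and 32.7, 43.8 and 50.2 in wild-type fed mice. All fasted arrays were below all fed arrays as deposited. Relative to the common shift the change was −0.47 in PPARα-null mice (95% interval −0.83 to −0.10, limma adjusted p = 0.0308) and −0.50 in wild-type mice (95% interval −0.87 to −0.14, adjusted p = 0.0468), neither past the threshold of an unadjusted p under 0.01, and the responses differed by 0.03 (95% interval −0.48 to 0.55). As deposited, the changes of −0.78 in PPARα-null and −0.82 in wild-type mice passed.

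The calls of Abcc2 depended on the setting and on single arrays. In PPARα-null mice the change passed in a fit of only the groups compared (−0.47), without PPARα-null fed replicate 3 (−0.57), or without replicate 1 of the fasted (−0.47) or the fed (−0.46) wild-type mice. In wild-type mice the change passed with the shift taken over probe sets with a mean over 20 across all arrays (−0.52). It passed with quantile normalization (−0.59), with each array centred (−0.52) and with trended and robust variances (−0.50). It also passed there without wild-type fasted replicate 2 or 3 (−0.59 in each case), PPARα-null fed replicate 3 (−0.51) or wild-type fed replicate 1 (−0.67), and was smallest without wild-type fasted replicate 1 (−0.32), where it did not pass. PPARα-null minus wild-type was −0.29 in fasted mice (95% interval −0.65 to 0.07) and −0.32 in fed mice (95% interval −0.69 to 0.04), the second passing without wild-type fed replicate 1 (−0.50).

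**Figure D3:**
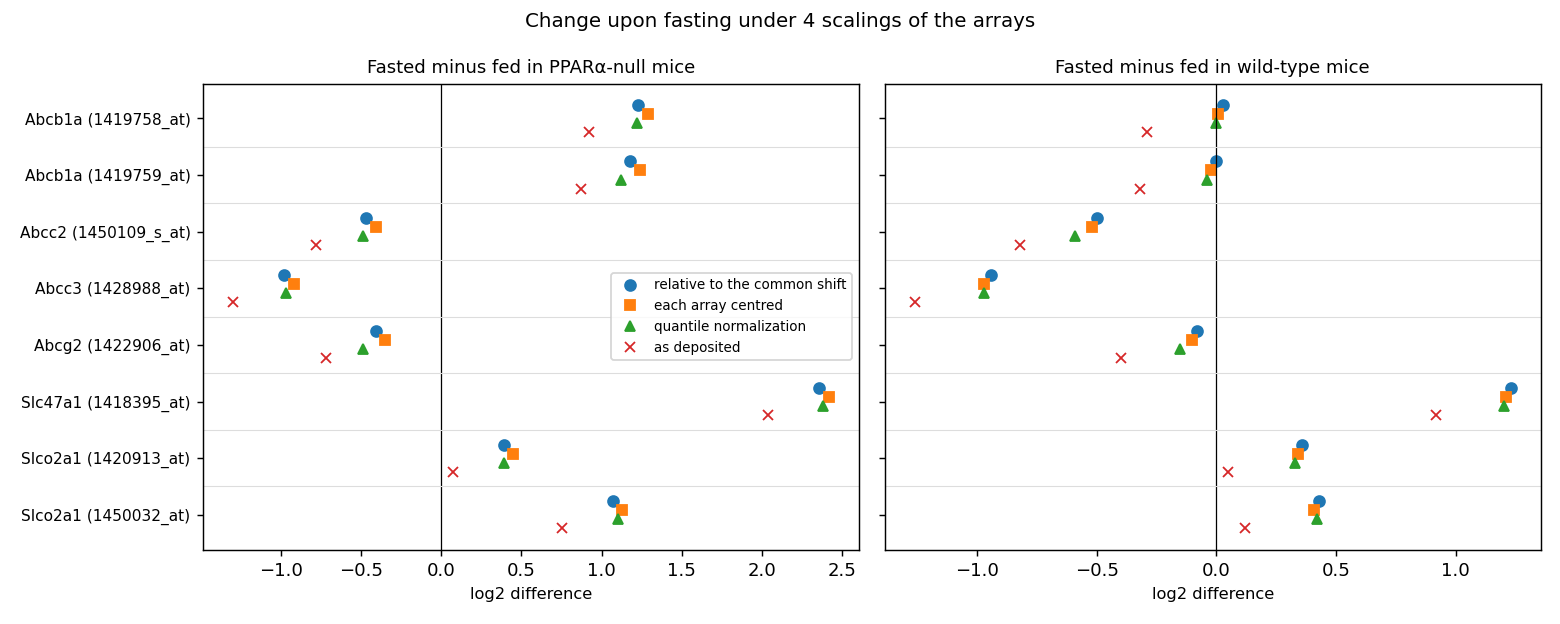
Change upon fasting (log2, fasted minus fed) of the 8 tested probe sets under 4 scalings of the arrays, in PPARα-null mice on the left and wild-type mice on the right. The 3 scalings that remove the difference between fed and fasted distributions lie close together, and the values as deposited lie to their left by about the common shift.

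Abcc1, which exports glutathione conjugates and leukotrienes towards the blood, was under 20 in every group on both of its probe sets, with intensities of 4.18 to 6.56 on 1421378_s_at and 10.1 to 14.8 on 1452233_at. These had a Pearson r of 0.25 over the 12 arrays. With Abcb1b and 1420914_at of Slco2a1, this makes 4 of the 12 probe sets without a level over the threshold in any group.

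**Figure D4:**
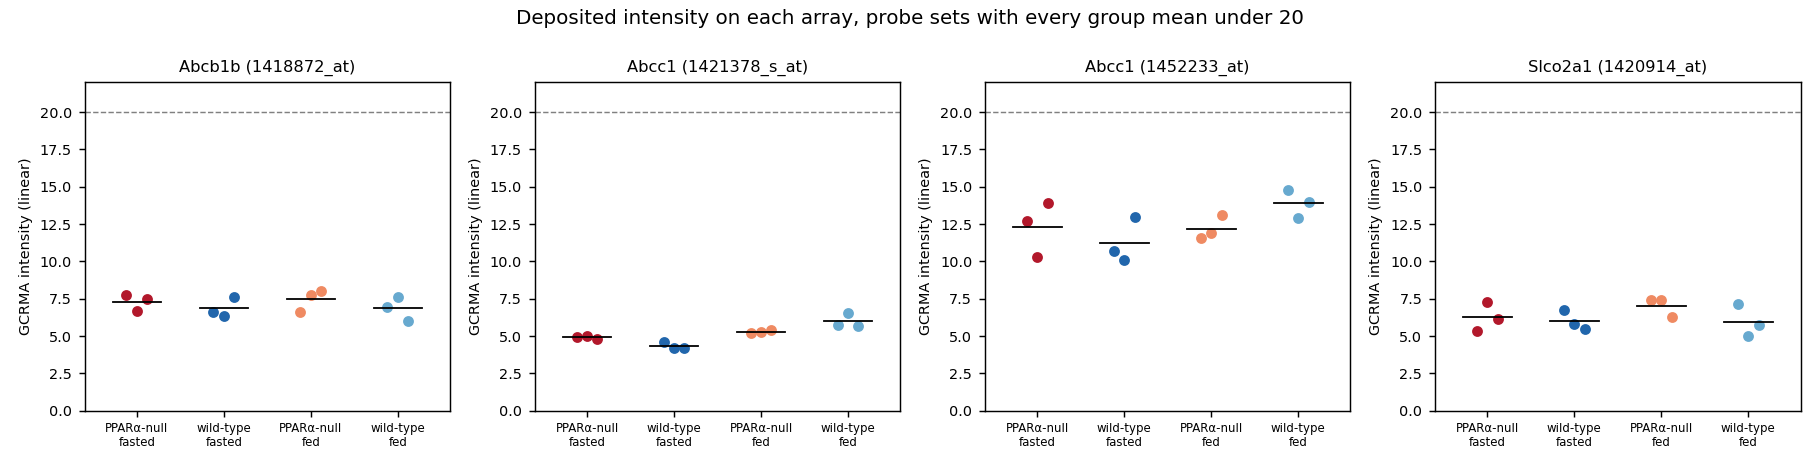
Deposited GCRMA intensity (linear axis from 0) of the 4 probe sets under 20 in every group, with 1 point per array, a bar at the mean of 3 arrays and a dashed line at the level threshold of 20. All points lie between 4.18 and 14.8.

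Across the 8 tested probe sets, calls between genotypes were made in the fasted state and not in the fed state. Among fasted mice 2 of 8, both of Abcb1a, were higher in PPARα-null than in wild-type mice (background 14% higher, 30.8% in either direction) and none was lower (background 16.8%), with a median difference of 0.31 against −0.0055 over all tested. Arrays did not overlap for 5 probe sets that were higher (background 24.5%) and for 0 that were lower in PPARα-null fasted mice (background 26.1%). The 5 belong to Abcb1a, Slc47a1 and Slco2a1, and probe sets of the same gene are counted separately in all these figures. Among fed mice limma called 0 of 8 (background 2.66%), 2 of 8 had an unadjusted p under 0.05 (11.3% of all tested), and the median was −0.011 against 0.033. Fed arrays of the genotypes did not overlap for 1 probe set, that of Slc47a1, which was lower in PPARα-null mice (background 6.4%), and for 0 that were higher (background 10.2%). The response to fasting was more positive in PPARα-null mice at an adjusted p under 0.05 for 4 of 8, belonging to Abcb1a, Slc47a1 and Slco2a1, and more negative for none (background 9.22% and 14.6%).

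Other genes of the same families were read from lists given by name. Of 7 other ABC efflux transporters, 5 were on the array and only Abcc5 was tested, with changes upon fasting of 0.32 in PPARα-null and 0.21 in wild-type mice that did not pass. Of 29 other organic ion transporters, 22 were on the array and 6 were tested upon fasting. In PPARα-null mice 2 rose (background 18.6%), Slc10a2, the ileal uptake carrier of bile acids (0.98, SE 0.166), and Slc15a1, the peptide carrier (0.54, SE 0.114). In the same mice Slc22a18 fell (−0.55, SE 0.143, background 23.6%), while in wild-type mice none of 6 passed (background 17.5%). With the values as deposited, 1 rose and 2 fell in PPARα-null mice (background 8.16% and 43.4%), where Slc15a1 (0.22) did not pass. In wild-type mice 0 rose and 2 fell as deposited (background 2.49% and 31.7%). One of these was Slc51a, with −0.69 as deposited and −0.37 relative to the common shift, which did not pass. Among fasted mice 3 of 7 were higher (background 14%) and 0 lower (background 16.8%) in PPARα-null than in wild-type mice. The higher ones were Slc10a2 (0.81, SE 0.166), Slc22a21 (0.75, SE 0.205) and Slc51a, a subunit of the exporter of bile acids towards the blood (0.59, SE 0.0886). The carnitine carrier Slc22a5 did not pass in any comparison. Between genotypes in fed mice, none of 6 passed (background 2.66%). The response to fasting was more positive in PPARα-null mice for 3 of 7 (background 9.22%), among them Slc10a2 (0.95) and Slc51a (0.67). It was more negative for 1, Slc22a18 (−0.64, background 14.6%).

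Receptors and transcription factors that act on drug transporter genes were read from a further list. Of 17 listed, 16 were on the array and 13 were tested upon fasting. In PPARα-null mice 4 of these rose (background 18.6%) and 5 fell (background 23.6%). In wild-type mice 2 rose (background 10%) and 0 fell (background 7.43%). Pparg, a relative of PPARα, rose by 1.60 (SE 0.188) in PPARα-null and by 0.60 (SE 0.188) in wild-type mice, and Rxra, the common partner receptor, rose by 0.97 (SE 0.121) in PPARα-null and by 0.67 (SE 0.121) in wild-type mice. Rxra was also higher by 0.43 in PPARα-null than in wild-type fasted mice, the smallest of the differences called higher there. Nr1h4, the bile acid receptor FXR, rose by 1.24 (SE 0.187) in PPARα-null mice. Nfe2l2 fell by 4.79 (SE 0.196) and Keap1, which holds Nrf2 in check, by 1.23 (SE 0.148) in PPARα-null mice. As deposited, 4 rose and 7 fell in PPARα-null mice (background 8.16% and 43.4%). In wild-type mice 0 rose and 2 fell as deposited (background 2.49% and 31.7%), where Rxra (0.36) and Pparg (0.28) did not pass and Keap1 (−0.75) did. Among fasted mice 5 of 14 were higher and 5 lower in PPARα-null than in wild-type mice (background 14% and 16.8%). The largest of these differences were Pparg (1.11, SE 0.188) and Nr1h4 (0.73, SE 0.187), which were higher, and Nfe2l2 (−4.72, SE 0.196) and Ahr (−0.69, SE 0.143), which were lower. Among fed mice none of 13 passed (background 2.66%). The response to fasting was more positive in PPARα-null mice for 3 of 14 and more negative for 5 (background 9.22% and 14.6%). The vitamin D receptor gene Vdr and Hif1a did not pass in any comparison.

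Genes of prostaglandin synthesis and breakdown stand beside Slco2a1, since uptake precedes breakdown. Of 13 listed, 11 were on the array and 6 were tested. Hpgd, the enzyme that inactivates prostaglandins, rose by 1.11 (SE 0.123) in PPARα-null and 0.98 (SE 0.123) in wild-type mice upon fasting, and Ptgr1, which acts in the next step, by 0.45 (SE 0.116) in PPARα-null and 0.76 (SE 0.116) in wild-type mice. In PPARα-null mice Ptges2, a prostaglandin E synthase gene, also rose (0.68, SE 0.142), and Pla2g4a, which encodes the phospholipase that releases arachidonic acid, fell (−0.80, SE 0.184). As deposited 1 rose and 2 fell in PPARα-null mice (background 8.16% and 43.4%), where Ptgr1 (0.13) and Ptges2 (0.37) did not pass. In wild-type mice 2 rose and 1 fell as deposited (background 2.49% and 31.7%). Between genotypes 1 of 6 passed in fasted mice (Ptges2, 0.44, background 30.8%) and none in fed mice (background 2.66%). No difference of responses passed for the 6 (background 23.8%). Cbr1 did not pass in any comparison, and the receptor gene Ptger4 passed only as deposited, with −0.57 in PPARα-null and −0.47 in wild-type mice upon fasting.

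Among 6107 genes with 1 symbol and a level over 20, those whose log2 values followed a transporter most closely over the 12 arrays, with the fasting shift removed, were taken as a description. The nearest to Abcb1a were Lgals3 (r = 0.974), Cdc42se2 (0.943) and Ywhaz (0.938), and to Slc47a1 they were Glrx (r = 0.975), Lyve1 (0.970) and Scarb2 (0.969). Slco2a1 on 1420913_at was followed by Daxx (r = 0.936), Eif2s2 (0.933) and Tcn2 (0.930). For the genes that were lower on fasted arrays, the nearest were Pgd (r = 0.968), Hccs (0.958) and Ost4 (0.950) to Abcc3, Rab40c (0.928), Sdcbp2 (0.928) and Lamtor5 (0.927) to Abcg2, and Gstm4 (0.934), Entpd5 (0.921) and Nadk (0.907) to Abcc2. The arrays share 4 groups and their normalization, so such r values largely describe differences between groups.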

How the data were processed

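Intensity values per probe set, deposited by the authors on a linear scale, had been made with GCRMA (version 2.20 in the submitters' processing notes), which corrects background, quantile-normalizes and summarises probes. No genome build applies to them. Values of all 22690 probe sets were taken to log2 and fitted with limma 3.58.1 in R 4.3.3 (1 mean per group, 12 arrays, eBayes). Depth has no meaning for arrays, and the 3 arrays per group limit the precision. The p-values measure the spread between the samples.

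Following the study's rule, a probe set was called changed upon fasting where limma's p was under 0.01 before adjustment, the fold exceeded 1.3 and its mean exceeded 20 in wild-type fed mice. Genotype comparisons took a mean over 20 in either group, and the difference of responses an adjusted p under 0.05 with a mean over 20 in any group. Benjamini-Hochberg adjustment ran over all probe sets so kept. Fasting changes are relative to the median change of the kept probe sets (−0.32). The transporters, the gene lists and this constant were chosen with earlier results of these data known.

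All probe sets of the transporters were named. Of each list, up to 2 called genes with the largest rise and 2 with the largest fall per comparison and up to 2 abundant genes never called could be named, by the probe set with the highest mean. The 3 nearest genes by Pearson r were named for each tested transporter. Probe sets with several symbols named no gene (20393 had 1 symbol, for 12394 genes). Motifs were searched in RefSeq windows of 250 bases. The fitting was tested on simulated data. Alternatives were other normalizations, filters, thresholds, variance models, a replicate block and each array left out, and, added after seeing the data, a fit without both replicates 1 and 3 of the PPARα-null fasted mice. Replicates correlated at r of 0.9838 to 0.9939, and none had identical values.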

Additional observations from a re-analysis of the deposited data

Results flagged for a closer look

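The response to fasting differed between PPARα-null and wild-type mice, by limma's test of the difference itself (adjusted p under 0.05), for 4 probe sets of 3 transporters. For Abcb1a the response was larger in PPARα-null mice by 1.18 on 1419759_at and by 1.20 on 1419758_at (log2), with PPARα-null fasted arrays above all others. For Slc47a1 it was larger by 1.13, and all fasted arrays of both genotypes were above the fed ones. For Slco2a1 it was larger by 0.63 on 1450032_at and by 0.02 on 1420913_at, so the probe sets of this gene did not give the same result. Nfe2l2 was at 30.2 to 60.0 on the same PPARα-null fasted arrays, against 1005 to 1618 on the other 9, and its part in these results was not tested. In 1 of these arrays the summed pancreas signal was 112, against 14173 and 14523 in replicates 1 and 3. Without both of these the group holds 1 array, which is assumed to vary like the arrays of the other groups, and in this fit the differences for Abcb1a and Slc47a1 passed and that for Slco2a1 did not (0.70, limma adjusted p = 0.0793).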

How the results depend on the processing

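No called result changed direction. Among fed mice, the count of transporter probe sets that differed between genotypes was 1 in place of 0 (Slc47a1, lower in PPARα-null mice) with quantile normalization, with each array centred, with only the groups compared and with trended and robust variances. With single arrays left out, counts ranged from 5 to 8 for fasting in PPARα-null mice, 2 to 4 for fasting in wild-type mice, 2 to 3 between genotypes in fasted mice, 0 to 1 in fed mice and 3 to 4 for the difference of responses. Of 480 single values with 1 array left out, 426 kept their call, 11 lost it and 19 gained it, and 24 uncalled values changed sign. Of 440 values under the other settings, 405 kept it, 7 lost it and 23 gained it, and 5 uncalled values changed sign. Losses concerned Slco2a1 on 1450032_at and Abcg2. Without PPARα-null fasted replicates 1 and 3 together, the fall of Abcg2 in PPARα-null mice (−0.33) and the rise of Slco2a1 in wild-type mice (0.42) were not called. That fit holds 1 PPARα-null fasted array and takes its spread from the other groups. Same-numbered samples did not vary together (5 of 18 correlations over 0.1, −0.149 to 0.218), so numbers were not read as pairs. With replicate number as a block, the changes upon fasting of Abcc2 in wild-type mice (−0.50, limma adjusted p = 0.0416) and of Slco2a1 on 1420913_at in PPARα-null mice (0.39, adjusted p = 0.02) passed, and no other call changed. The 4 probe sets under 20 are limited by signal over background.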
